A study of Rattus norvegicus with 4 samples.

Results

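The genes described here are 9 factors and receptors of blood vessel growth. They are the ligands Vegfa, Fgf2, Adm, Apln and Angpt2 and the receptors Kdr, Flt1, Aplnr and Tek, taken by their symbols from the 23999 genes listed in the count files, all 9 of which were found. Their UMIs (unique molecular identifiers, 1 per captured RNA molecule) were summed in each library and cell class, and injected libraries were set against uninjected ones. The injected group was skin of a rat wound healing model that had received purified migrasomes, vesicles left behind by migrating cells, and was taken on day 4. The uninjected group was skin of the same model and day that had received nothing, so the act of injection and the migrasomes cannot be told apart. Each group had 2 libraries of dissociated cells on the 10x Genomics droplet platform. The sources used here give no strain, age or source of the migrasomes. Nothing in the labels ties each replicate to its own animal, so the p-values describe library-to-library spread, and part of that could be technical.

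Vascular endothelial growth factor A, the product of Vegfa, is secreted by many cells short of oxygen and acts on endothelial cells through KDR, its main signalling receptor, while FLT1 binds it tightly with weak signalling and can act as a decoy. Angiopoietin 2 (Angpt2) comes mainly from endothelial cells and loosens vessels through TEK, also called TIE2. Apelin (Apln), made by endothelial tip cells of sprouts, acts on Aplnr. Adrenomedullin (Adm) is a peptide that acts on endothelial cells through the receptor CALCRL with a RAMP partner, and basic fibroblast growth factor (Fgf2) acts on fibroblast growth factor receptors of many cells of a wound.

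The injected libraries held 98444851 and 75823418 UMIs and the uninjected ones 82112943 and 105605297. After filtering, 9860 and 6118 injected cells and 9085 and 8726 uninjected cells were kept. Pairs of libraries shared 14 to 29 cell barcodes, at most 0.332% of the smaller library. Uninjected 1 stood apart: genes of ribosomal proteins took 17.0% of its kept UMIs, against 7.14% and 8.60% in the injected libraries and 8.60% in uninjected 2. A cell was put in a class by marker genes that held none of the 9 genes, and classes are called X-like because no annotation by the authors was used. There were 137 and 35 injected and 40 and 40 uninjected endothelial-like cells, and 883 and 622 injected and 369 and 644 uninjected fibroblast-like cells. Injected 1 gave 3015791 endothelial-like UMIs, against 392562 in injected 2 and 362998 and 571328 in the uninjected libraries. Its endothelial-like values thus had the least counting noise, which says nothing of the spread between libraries. The endothelial-like cells had all 11 measured endothelial markers, at a summed 4334 and 5816 CPM in injected and 4813 and 4561 CPM in uninjected libraries, where CPM is the UMIs of a gene per 1000000 UMIs of the class in that library. Keratinocyte markers summed to 404 and 400 CPM in the injected endothelial-like cells, and to 1727 and 362 CPM in the uninjected ones, with uninjected 1 the highest.

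The promoters of Adm, Vegfa and Fgf2 are shown because these 3 ligands were higher in both injected libraries than in both uninjected ones in fibroblast-like cells, with no call, and lead the results. RefSeq windows of 300 bases on the GRCr8 assembly (250 before and 50 after the gene's start) were found for 6 of the 9 genes, and Vegfa, shown with its first window, had 2. Capitals mark matches on either strand to ACGTG or GCGTG, the cores bound by hypoxia-inducible factors, to GGGCGG, the GC box, or to TATAAA, the TATA box.
Adm, chr1:174179950-174180249, plus strand: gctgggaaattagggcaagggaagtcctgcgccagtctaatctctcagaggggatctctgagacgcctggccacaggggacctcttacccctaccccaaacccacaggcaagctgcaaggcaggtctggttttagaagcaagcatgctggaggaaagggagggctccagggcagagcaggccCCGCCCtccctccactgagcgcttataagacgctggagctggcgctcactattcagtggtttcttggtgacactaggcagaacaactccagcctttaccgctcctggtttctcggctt
Vegfa, chr9:22452604-22452903, plus strand: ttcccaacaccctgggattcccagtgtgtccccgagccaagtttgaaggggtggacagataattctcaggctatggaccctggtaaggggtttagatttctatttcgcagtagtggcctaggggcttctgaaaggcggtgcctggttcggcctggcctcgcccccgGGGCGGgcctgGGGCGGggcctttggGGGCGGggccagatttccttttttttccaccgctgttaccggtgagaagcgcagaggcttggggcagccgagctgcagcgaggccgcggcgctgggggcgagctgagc
Fgf2, chr2:122164204-122164503, plus strand: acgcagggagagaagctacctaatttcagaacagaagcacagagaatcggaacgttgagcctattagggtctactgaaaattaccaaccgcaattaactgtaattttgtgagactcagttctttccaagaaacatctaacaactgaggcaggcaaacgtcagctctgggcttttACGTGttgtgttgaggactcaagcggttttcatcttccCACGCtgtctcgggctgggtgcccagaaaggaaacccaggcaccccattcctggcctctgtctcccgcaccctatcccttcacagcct
The Adm window held 1 GC box and the Vegfa window 3, and the Fgf2 window held 1 ACGTG and 1 GCGTG. Of 33469 rat promoter windows, 19.3% held ACGTG, 29.7% GCGTG, 33.1% GGGCGG and 14.2% TATAAA. These are matches of letters in a window and were not tested as sites.

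The 9 genes were spread over the wound's cell classes in different ways. Fibroblast-like and keratinocyte-like cells held 40.8% and 40.1% of all Vegfa UMIs, and 54.7% and 41.2% of all Fgf2 UMIs. Adm UMIs came mostly from keratinocyte-like cells, with 71.8%, then fibroblast-like cells with 18.5% and endothelial-like cells with 7.03%. The last share rested on injected 1, and without it endothelial-like cells held 0.942% of Adm UMIs. Endothelial-like cells held 87.5% of the UMIs of Aplnr, 67.7% of Angpt2, 52.7% of Apln, 51.7% of Flt1 and 42.8% of Tek, though they were at most 1.39% of the cells of a library. Injected 1, with the most endothelial-like cells, set the ligands' shares. Without it, endothelial-like cells held 12.1% of Apln UMIs and fibroblast-like cells 74.0%, and endothelial-like cells held 23.0% of Angpt2 UMIs and keratinocyte-like cells 35.4%. The receptors' shares without it were 65.3% for Aplnr, 37.1% for Flt1 and 31.6% for Tek, where fibroblast-like cells held 37.8%. Kdr had 8.93% of its UMIs in endothelial-like cells (4.05% without injected 1 and 15.2% without uninjected 2), 40.6% in dendritic-like cells and 35.8% in cells left in no class.

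**Figure D1:**
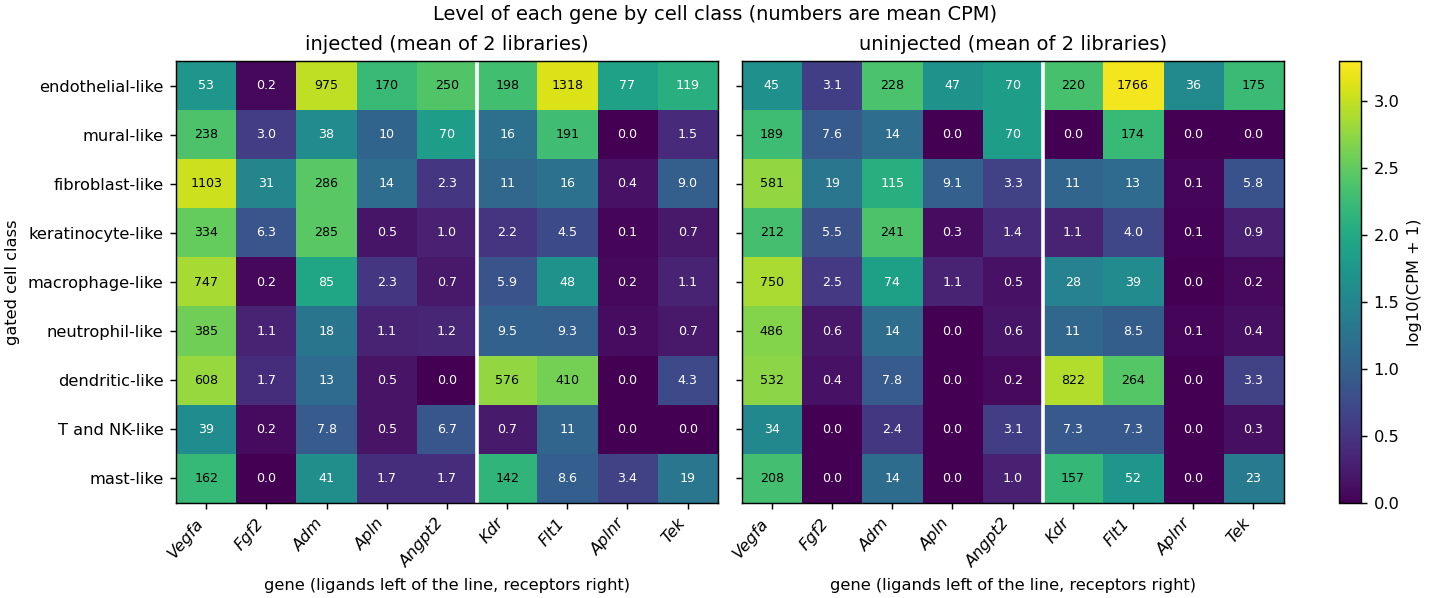
Mean level of each gene (columns, ligands left of the line and receptors right of it) in each cell class (rows), injected libraries in the left panel and uninjected libraries in the right one. Numbers are mean CPM of 2 libraries and colour is log10(CPM + 1), on a scale shared by all genes and both panels. Vegfa was present in most classes, while Aplnr and Tek were highest in endothelial-like cells. Angpt2 was highest there in the injected panel, but in the uninjected panel mural-like cells had about the same mean.

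Among the ligands, Vegfa separated the groups in fibroblast-like cells. Its level there was 1229 and 978 CPM in the injected libraries, against 567 and 596 CPM in the uninjected libraries, from 3669 UMIs or more in each library. Both injected libraries lay above both uninjected ones, with means of 1103 ± 177 and 581 ± 20.6 CPM (SD, n = 2 each). The log2 change, injected over uninjected, was 0.93 ± 0.30 (SE), a 1.91-fold difference, which did not pass the threshold of adjusted p under 0.05 (adjusted p = 0.434, unadjusted p = 0.0189, edgeR's quasi-likelihood test). Leaving out any 1 library left a log2 change between 0.74 and 1.11, and free RNA of the droplets could account for at most 0.736% of these UMIs. In both fibroblast-like clusters, made without the 9 genes, both injected libraries were above both uninjected ones. Cluster 13 had 1229 and 974 CPM in injected against 573 and 597 CPM in uninjected libraries. It held 92.3% of the cells of the class, so its values largely repeat those above. Cluster 14, of 99 cells, had 1338 and 1341 against 551 and 571 CPM, from 8 and 19 injected and 36 and 36 uninjected cells.

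Keratinocyte-like Vegfa was 368 and 300 CPM in injected and 180 and 243 CPM in uninjected libraries. The groups did not overlap, and the log2 change of 0.51 ± 0.22 (SE) did not pass the test (edgeR, adjusted p = 0.846). Macrophage-like cells had 691 and 804 CPM in injected and 733 and 767 CPM in uninjected libraries, an overlap with a log2 change of 0.10 ± 0.33 (SE; edgeR, adjusted p = 0.991). In neutrophil-like cells the values were 338 and 433 CPM in injected and 408 and 565 CPM in uninjected libraries, which overlapped too. Dendritic-like Vegfa was 659 and 557 CPM in injected and 554 and 510 CPM in uninjected libraries, narrowly separated, with a log2 change of 0.04 ± 0.29 (SE; edgeR, adjusted p = 0.998). Endothelial-like cells had little Vegfa, at 90.2 and 15.3 CPM in injected and 52.3 and 36.8 CPM in uninjected libraries. Over all 4 libraries the order of mean Vegfa was fibroblast-like (842 CPM), macrophage-like (749), dendritic-like (570), neutrophil-like (436), keratinocyte-like (273), mast-like (185), endothelial-like (48.6), and T and NK-like cells (36.5). In that order only the macrophage-like and dendritic-like neighbours did not overlap in range. Of the mast-like cells, 92 of 269 lay in the unnamed cluster 16, as did 63.2% of those of uninjected 2. Their Vegfa is therefore not read as a level of mast cells.

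Adm had 353 and 218 CPM in injected fibroblast-like cells, against 106 and 123 CPM in uninjected ones. The groups did not overlap, with means of 286 ± 95.1 and 115 ± 11.5 CPM (SD, n = 2 each), and injected 1 was the highest. The log2 change of 1.34 ± 0.31 (SE), a 2.52-fold difference, did not pass (edgeR, adjusted p = 0.323, unadjusted p = 0.00362). DESeq2 called it, at 1.33 with adjusted p = 0.0111, while adjusted p over all alternatives ran from 0.0111 to 0.998. The fibroblast-like clusters went opposite ways: Adm was 355 and 221 CPM in injected and 103 and 119 CPM in uninjected libraries in cluster 13, but 45.0 and 65.7 CPM in injected and 178 and 244 CPM in uninjected libraries in cluster 14, whose injected values rest on 4 and 17 UMIs. Fgf2 in fibroblast-like cells was 31.7 and 29.5 CPM in injected and 17.6 and 19.7 CPM in uninjected libraries. Again the groups did not overlap, and the log2 change of 0.73 ± 0.21 (SE), a 1.66-fold difference, did not pass (edgeR, adjusted p = 0.388, unadjusted p = 0.0102).

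Keratinocyte-like cells, which held most Adm UMIs, were set beside them. Keratinocyte-like Adm was 299 and 271 CPM in injected and 212 and 271 CPM in uninjected libraries, so that injected 2 and uninjected 2 nearly met, and the log2 change was 0.10 ± 0.20 (SE; edgeR, adjusted p = 0.932). Fgf2 was 6.74 and 5.88 CPM in injected and 4.86 and 6.16 CPM in uninjected libraries, which overlapped, with a log2 change of 0.05 ± 0.21 (SE; edgeR, adjusted p = 0.971). Whether the fibroblast-like change was the larger one was tested in a fit with the library as a block, added after the data were seen. The fibroblast-like minus keratinocyte-like difference of log2 changes was 1.17 ± 0.23 (SE) for Adm, 0.66 for Fgf2 and 0.38 for Vegfa. None passed (edgeR, adjusted p = 0.312, 0.560 and 0.730), and edgeR called none of 15241 genes (0.0%), of which 1142 had an unadjusted p under 0.05. The same test against macrophage-like cells gave 0.64 ± 0.29 (SE) for Vegfa (edgeR, adjusted p = 0.549), where 0.204% of genes were called.

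**Figure D2:**
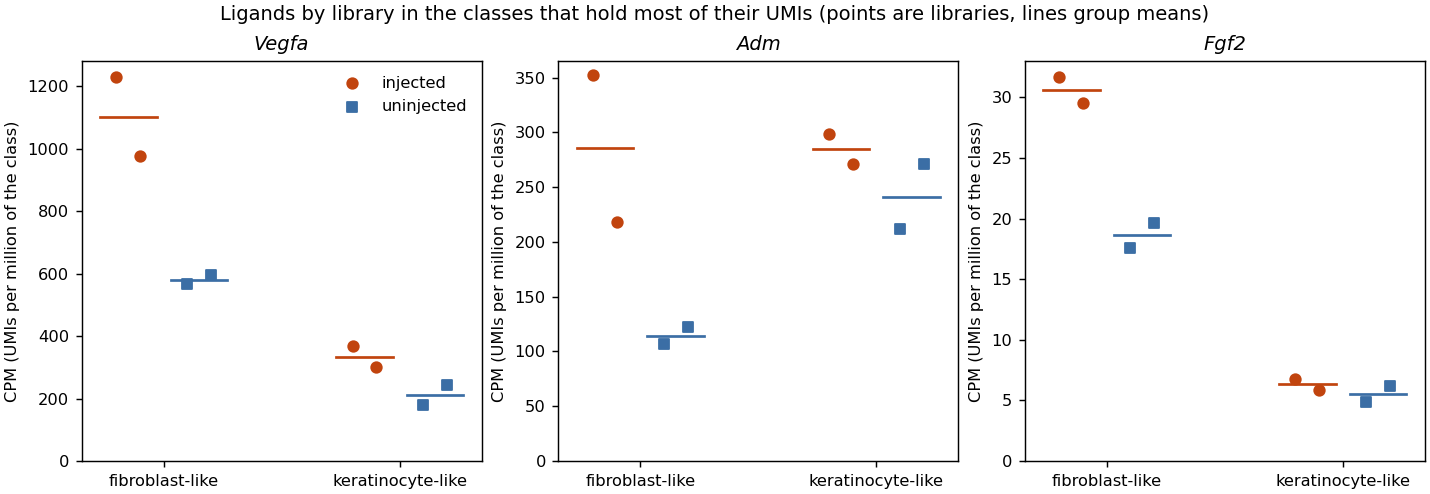
CPM of Vegfa, Adm and Fgf2 in fibroblast-like and keratinocyte-like cells, 1 point per library, circles for injected and squares for uninjected libraries, with lines at the group means. In fibroblast-like cells both circles lie above both squares for all 3 genes, at 1229 and 978 against 567 and 596 CPM for Vegfa.

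Of the 9 genes, 8 passed the filter on low counts in fibroblast-like cells, all but Aplnr. None passed edgeR's test there, where 6 of 13307 genes (0.0451%) did. DESeq2 called 1 of the 8, Adm, where it called 182 of the 12275 genes given an adjusted p. At an unadjusted p under 0.05, 3 of the 8 were higher in injected libraries (Vegfa, Adm and Fgf2), against 5.92% of all genes, and none was lower, against 4.4%. Both injected libraries lay above both uninjected ones for 4 of the 8, the fourth being Tek, against 17.5% of all genes, and below for Angpt2, against 22.0%. Their median log2 change was 0.66, beside 0.00 over all genes. Tek in fibroblast-like cells was 9.04 and 8.87 CPM in injected and 6.18 and 5.47 CPM in uninjected libraries (log2 change 0.64 ± 0.29, SE; edgeR, adjusted p = 0.503).

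Other genes of these pathways in fibroblast-like cells gave no call either. Of 14 hypoxia-inducible factor targets, 12 had positive and 2 negative log2 changes, where 50.04% of all genes were positive, with a median of 0.42. For 6 of the 14, both injected libraries were above both uninjected ones, against 17.5% of all genes. Slc2a1, the glucose transporter GLUT1, was 306 and 160 CPM in injected and 72.1 and 124 CPM in uninjected libraries (log2 change 1.29; edgeR, adjusted p = 0.399). Pfkfb3, a regulator of glycolysis, was 107 and 62.9 CPM in injected and 33.5 and 42.1 CPM in uninjected libraries (log2 change 1.19; edgeR, adjusted p = 0.363). Both genes separated the groups, with injected 1 the highest. Ackr3, a scavenging receptor that takes up adrenomedullin and CXCL12, was 615 and 708 CPM in injected and 175 and 226 CPM in uninjected libraries, a clear gap of both injected libraries above both uninjected ones (log2 change 1.74 ± 0.27, SE; edgeR, adjusted p = 0.153). Of 4 other VEGF family ligands tested, 2 had positive and 2 negative changes, and of 8 other FGF genes, 5 and 3. Of 8 angiogenesis inhibitors, 6 had positive and 2 negative changes. For 3 of these 8 both injected libraries were above, against 17.5% of all genes, and for 1 both were below, against 22.0%. Other VEGF receptors and co-receptors gave 1 positive and 1 negative change, and other angiopoietin and TIE genes 3 and 1. Vegfd, a ligand of KDR and FLT4 in humans, was 72.4 and 63.3 CPM in injected and 40.3 and 35.5 CPM in uninjected libraries (log2 change 0.84; edgeR, adjusted p = 0.388). Fgf7, the keratinocyte growth factor, was 190 and 96.4 CPM in injected and 65.2 and 61.8 CPM in uninjected libraries (log2 change 1.18; edgeR, adjusted p = 0.418). Most genes of dissociation and cell stress were higher too: 8 of 10 had positive changes in fibroblast-like cells, with a median of 0.56, where 50.04% of all genes were positive. For 6 of the 10, both injected libraries were above, against 17.5% of all genes, Junb being 2351 and 2895 CPM in injected and 1172 and 1654 CPM in uninjected libraries. Their part in the ligands' levels was not tested. The hypoxia-inducible factor targets had 11 positive and 3 negative changes in each of keratinocyte-like, macrophage-like and neutrophil-like cells. Of all genes, 50.9%, 51.4% and 46.7% were positive in those classes. In dendritic-like and in T and NK-like cells 7 of 12 targets were positive, and in mast-like cells 5 of 10.

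In endothelial-like cells the ligands Adm and Angpt2 had the largest differences among the 9 genes that separated the groups. Adm was 1432 and 517 CPM in injected libraries, against 273 and 184 CPM in uninjected ones, from 4320 and 203 UMIs in injected and 99 and 105 UMIs in uninjected libraries. Both injected libraries were above both uninjected ones, and injected 1 alone was far above the other 3. The log2 change was 1.98 ± 0.56 (SE), a 3.96-fold difference, and did not pass (edgeR, adjusted p = 0.616, unadjusted p = 0.0104). Without injected 1 it was 1.06 (edgeR, adjusted p = 0.990), and adjusted p over the alternatives ran from 4.07e-07, without uninjected 1, to 0.990. Adm was seen in 109 of 137 and 14 of 35 injected cells and in 19 of 40 and 19 of 40 uninjected cells, and free RNA could account for at most 1.23% of its UMIs. Cells of injected 1 had a median of 19666 UMIs, against 8425 in injected 2 and 6947 and 11475 in the uninjected libraries, so these shares of cells are not compared.

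Angpt2 had 385 and 115 CPM in injected and 55.1 and 84.0 CPM in uninjected endothelial-like cells, from 1160 and 45 against 20 and 48 UMIs. The groups did not overlap, and injected 1 was again the highest. The log2 change of 1.78 ± 0.58 (SE), a 3.43-fold difference, did not pass (edgeR, adjusted p = 0.620, unadjusted p = 0.0192), and it was 0.62 without injected 1. Mural-like cells, the other class with much Angpt2 for its size, had 70.3 and 70.4 CPM in injected and 52.4 and 87.5 CPM in uninjected libraries, from as few as 5 UMIs. These overlapped, and the class was too small to test. Apln was 309 and 30.6 CPM in injected and 44.1 and 49.0 CPM in uninjected endothelial-like cells. Only injected 1 was high and injected 2 was the lowest, so the groups overlapped: the log2 change of 1.85 ± 0.90 (SE; edgeR, adjusted p = 0.620) turned to −0.70 without injected 1. Fgf2 had at most 2 UMIs in the endothelial-like cells of a library and was not tested.

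The receptors of the same cells did not follow 1 direction. Aplnr was 111 and 43.3 CPM in injected and 41.3 and 29.8 CPM in uninjected libraries, from 336 and 17 against 15 and 17 UMIs. The groups were separated, narrowly between injected 2 and uninjected 1, with a log2 change of 1.13 ± 0.53 (SE; edgeR, adjusted p = 0.620), and of 0.20 without injected 1. Flt1 was 1332 and 1304 CPM in injected and 2069 and 1463 CPM in uninjected libraries. Both injected libraries were below both uninjected ones, with a log2 change of −0.54 ± 0.37 (SE; edgeR, adjusted p = 0.699). Without uninjected 1, the highest, it was −0.15. Kdr was 187 and 209 CPM in injected and 160 and 280 CPM in uninjected libraries, which overlapped (log2 change −0.24 ± 0.34, SE; edgeR, adjusted p = 0.853). Cells classed by clusters instead gave Kdr 187 and 213 CPM in injected and 152 and 151 CPM in uninjected libraries, a change of 0.33, so its direction rests on the way cells were classed. Tek was 103 and 135 CPM in injected and 231 and 119 CPM in uninjected libraries, also overlapping (log2 change −0.69 ± 0.44, SE; edgeR, adjusted p = 0.684), and −0.02 without uninjected 1.

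**Figure D3:**
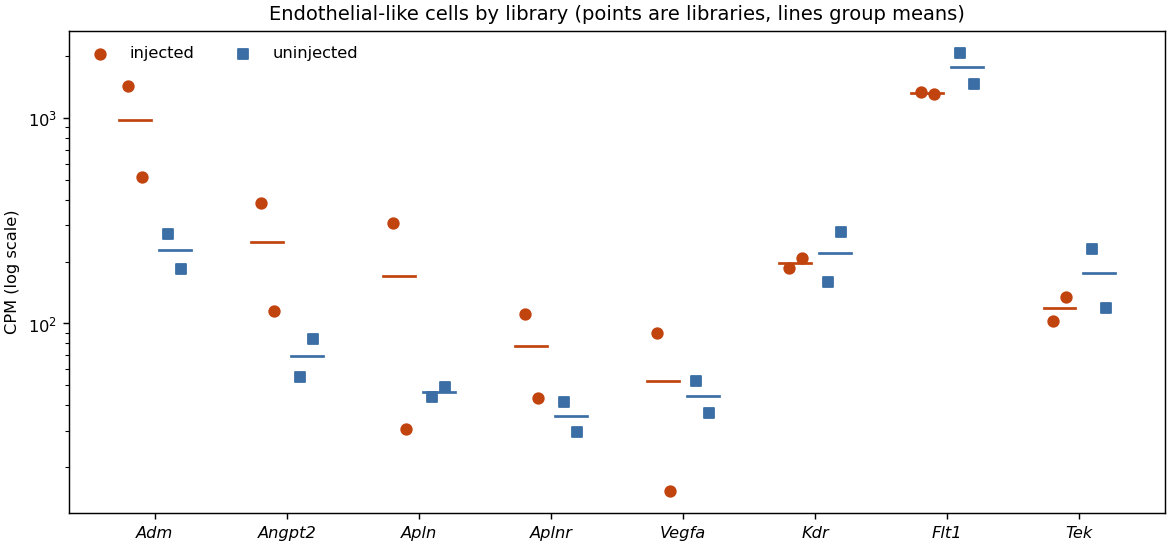
CPM in endothelial-like cells, on a log axis, of the 8 genes tested there, 1 point per library, circles for injected and squares for uninjected libraries. Injected 1 is the highest library for Adm, Angpt2, Apln and Aplnr, at 1432 CPM for Adm, and both injected libraries are below both uninjected ones for Flt1.

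None of the 8 genes tested in endothelial-like cells passed by edgeR or DESeq2, where edgeR called 1 of 6173 genes (0.0162%). Both injected libraries were above both uninjected ones for 3 of the 8 (Adm, Angpt2 and Aplnr), against 24.5% of all genes, and below for 1 (Flt1), against 15.0%. At an unadjusted p under 0.05, 2 of the 8 were higher in injected libraries, against 3.19% of all genes, and none was lower, against 4.62%. The median log2 change of the 8 was 0.73, beside −0.02 over all genes.

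Whether the endothelial-like changes of Adm and Angpt2 differed from those of other classes was tested in the same kind of added fit. For Adm, the endothelial-like minus keratinocyte-like difference of log2 changes was 1.83 ± 0.32 (SE) and passed (edgeR, adjusted p = 7.21e-06), as did 159 of 14198 genes, 1.12%. It was 1.06 (edgeR, adjusted p = 0.517) without injected 1 and 1.29 (edgeR, adjusted p = 0.107) without uninjected 2, so the call rested on those libraries, and adjusted p over the 4 libraries left out in turn ran from 4.82e-08 to 0.517. That fit had 2 residual degrees of freedom and took the spread of every gene from the trend over all genes. Against fibroblast-like cells the Adm difference was 0.62 ± 0.33 (SE; edgeR, adjusted p = 0.572) and against dendritic-like cells 1.94 ± 0.61 (SE; edgeR, adjusted p = 0.647), and neither passed. For Angpt2, the difference from keratinocyte-like cells, which had 0.687 to 2.19 CPM, was 2.16 (edgeR, adjusted p = 1.86e-04), and it was not called without injected 1 (1.44) or without uninjected 1 (0.99). Against fibroblast-like cells the Angpt2 difference was 2.18 (edgeR, adjusted p = 0.0341), where 0.898% of genes were called, and 1.57 (edgeR, adjusted p = 0.606) without injected 1, the highest of adjusted p over the 4 libraries left out, which started at 1.3e-04.

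Other genes of sprouting and of these pathways in endothelial-like cells were split. Of 14 sprouting and vessel identity genes, 4 had positive and 10 negative log2 changes, with a median of −0.36, where 48.0% of all genes were positive. Esm1, endocan, a marker of tip cells, was 689 and 107 CPM in injected and 41.3 and 89.3 CPM in uninjected libraries (log2 change 2.54 ± 0.84, SE; edgeR, adjusted p = 0.620). Its libraries separated, with injected 1 far above the rest. Notch1, a receptor that restrains sprouting, was 43.4 and 50.9 CPM in injected and 110 and 63.0 CPM in uninjected libraries, with both injected libraries below (log2 change −0.995; edgeR, adjusted p = 0.620). Of 4 angiogenesis inhibitors, 1 had a positive and 3 had negative changes. Of 11 hypoxia-inducible factor targets, 9 had positive and 2 negative changes, with a median of 0.57. Bnip3, a mitophagy receptor, was 260 and 143 CPM in injected and 44.1 and 77.0 CPM in uninjected libraries, with both injected libraries above (log2 change 1.66; edgeR, adjusted p = 0.606). Hif1a, the oxygen-regulated subunit itself, was 530 and 601 CPM in injected and 1039 and 872 CPM in uninjected libraries, with both injected libraries below (log2 change −0.87; edgeR, adjusted p = 0.620). Of the other genes of the apelin and adrenomedullin axis, 1 of 5 had a positive change, Ackr3, at 245 and 86.6 CPM in injected and 49.6 and 78.8 CPM in uninjected libraries (log2 change 1.32; edgeR, adjusted p = 0.620). The receptor of Adm is added here with its values already seen. Calcrl, the adrenomedullin receptor, was 365 and 568 CPM in injected and 534 and 677 CPM in uninjected libraries, and its partner Ramp2 was 504 and 802 CPM in injected and 700 and 618 CPM in uninjected libraries. Both overlapped. Genes of dissociation and cell stress had 1 of 10 positive changes and a median of −0.40 in endothelial-like cells, Fosb being 190 and 217 CPM in injected and 457 and 459 CPM in uninjected libraries. Their part in the levels above was not tested.

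**Figure D4:**
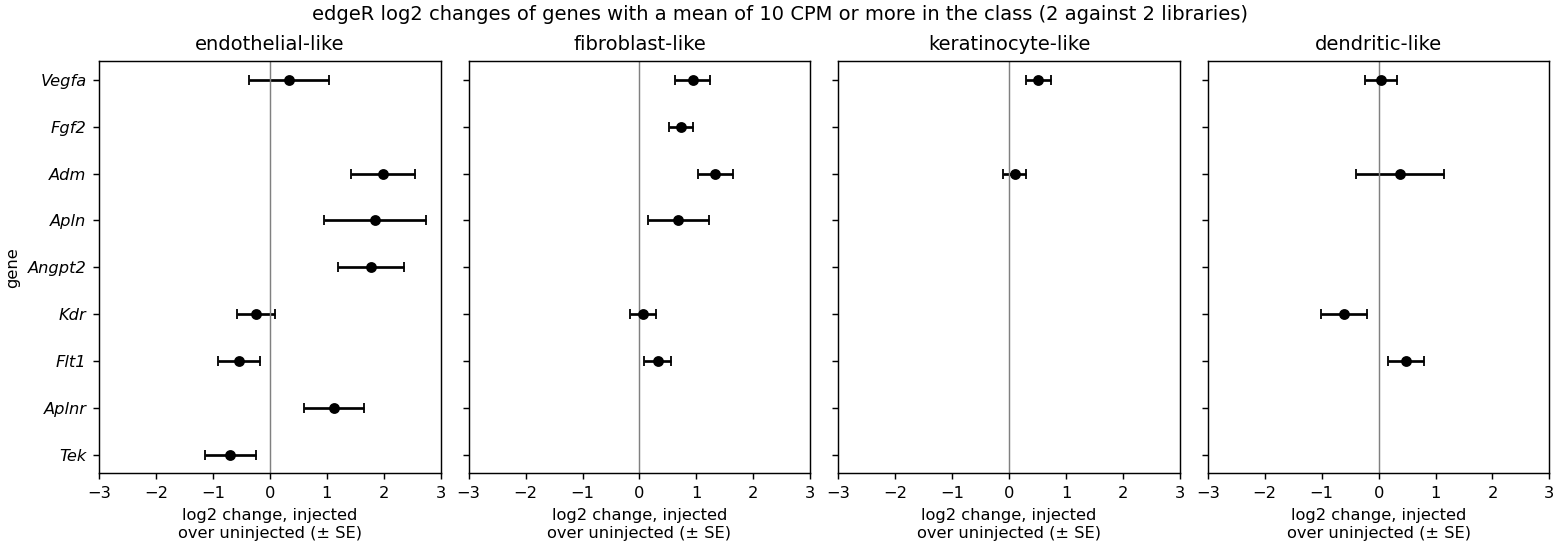
Log2 change, injected over uninjected, with its standard error, of the genes with a mean of at least 10 CPM in endothelial-like, fibroblast-like, keratinocyte-like and dendritic-like cells. None passed the test. The highest values are those of Adm, Apln and Angpt2 in endothelial-like cells, at 1.98, 1.85 and 1.78, with wide errors. Kdr, Flt1 and Tek lie below 0 there, but Kdr turned positive with cells classed by clusters or by the stricter gate.

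Dendritic-like cells were the class with the highest Kdr, a receptor best known from endothelium. Kdr was 405 and 748 CPM in injected and 605 and 1038 CPM in uninjected dendritic-like cells, which overlapped (log2 change −0.61 ± 0.41, SE; edgeR, adjusted p = 0.860), and the change was −0.19 without injected 1. None of its 4 libraries fell in the range of endothelial-like cells, 160 to 280 CPM. Summed endothelial markers in these cells were 100 and 77.7 CPM in injected and 48.2 and 86.1 CPM in uninjected libraries, and Cdh5, the endothelial cadherin, averaged 3.21 and 2.59 CPM in dendritic-like clusters 22 and 23, against 739 CPM in the endothelial-like cluster. Flt1 in dendritic-like cells was 515 and 304 CPM in injected and 262 and 266 CPM in uninjected libraries. Both injected libraries were above both uninjected ones, with a log2 change of 0.48 ± 0.32 (SE; edgeR, adjusted p = 0.860), and of 0.12 without injected 1. For Vegfa and Flt1, 2 of the 4 genes tested in this class, both injected libraries were above, against 23.8% of all genes. None of the 4 passed or had an unadjusted p under 0.05 by edgeR, and no call was made among 7400 genes (0.0%), of which 416 had an unadjusted p under 0.05 (DESeq2 called 10).

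The 2 receptors were highest in different dendritic-like clusters. The dendritic-like class took in 36.1% of the cells of cluster 22 and 52.3% of those of cluster 23. Cluster values therefore also come from cells outside the class. Of the dendritic markers, cluster 23 had Clec9a at 241 CPM, Ccl17 at 183 CPM and Cd207 at 21.8 CPM, with Batf3 at 8.23 and Xcr1 at 1.64 CPM, so it is given no subtype. It had 829 and 967 CPM of Kdr in injected and 1125 and 1582 CPM in uninjected libraries, and its Flt1 ran from 20.1 to 58.3 CPM. There both injected libraries were below both uninjected ones for Kdr, which was not tested by cluster. Cluster 22 had Cd207 (langerin, known from Langerhans cells) at 1342 CPM, the chemokine Ccl22 at 406 CPM and Clec9a at 2.86 CPM. Macrophage markers summed to 543 CPM in cluster 22 and 195 CPM in cluster 23. Cluster 22 had 751 and 475 CPM of Flt1 in injected and 293 and 516 CPM in uninjected libraries, an overlap, and Kdr of 10.0 to 214 CPM. Ccr7, the homing receptor of migrating dendritic cells, averaged 121 CPM in cluster 22 and 109 CPM in cluster 23. Of the dendritic-like cells, cluster 22 held 98 of 175 and 57 of 120 in injected and 36 of 60 and 96 of 224 in uninjected libraries, so the class mixes both kinds in each library. Cluster 16, left unnamed and led by Ifi30, Blnk and Irf8, had Kdr at 294 and 287 CPM in injected and 306 and 281 CPM in uninjected libraries, which overlapped closely. It supplied 92 of 269 mast-like cells, and the mast-like cluster itself had 1 Kdr UMI in all, so the 55.6 to 229 CPM of Kdr in mast-like cells is not read as a level of mast cells.

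**Figure D5:**
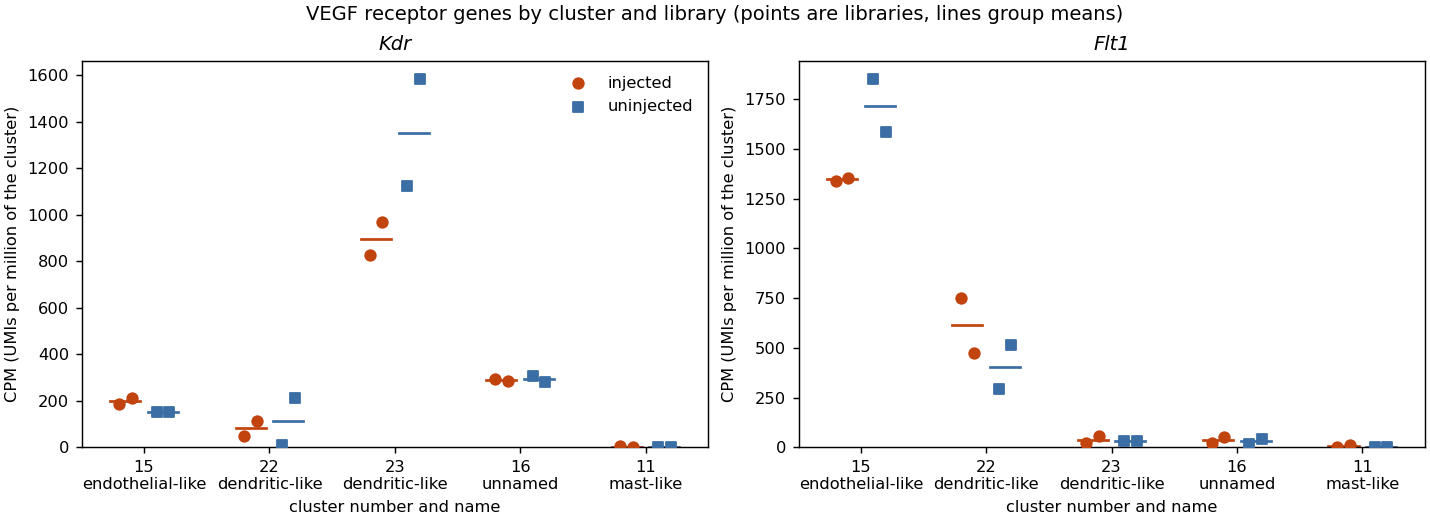
CPM of Kdr and Flt1 by cluster and library, circles for injected and squares for uninjected libraries, in the endothelial-like cluster 15, the dendritic-like clusters 22 and 23, the unnamed cluster 16 and the mast-like cluster 11. Kdr is highest in cluster 23, at 829 to 1582 CPM, and Flt1 in cluster 15, with cluster 22 next.

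Kdr was also counted in macrophage-like cells, from 10 and 21 UMIs in injected and 8 and 42 UMIs in uninjected libraries. These UMIs lay in 5 of 592 and 3 of 392 injected cells and in 3 of 55 and 2 of 386 uninjected cells. Dendritic markers in the class summed to 138 and 363 CPM in injected and 1093 and 201 CPM in uninjected libraries. With so few cells, Kdr here is not read as a level of macrophages. The levels were 3.31 and 8.47 CPM in injected and 36.9 and 19.3 CPM in uninjected libraries, with both injected libraries below, as for 24.3% of all genes, but the log2 change of −1.90 ± 0.59 (SE; edgeR, adjusted p = 0.903) turned to 2.06 with cells classed by clusters. The 4 genes tested in macrophage-like cells gave no call, where 1 of 8994 genes (0.0111%) did. In keratinocyte-like cells both injected libraries were above for 3 of the 8 genes tested (Vegfa, Adm and Apln), against 30.1% of all genes, and below for 1 (Tek), against 9.84%. Apln and Tek were scarce there, at 0.168 to 0.652 CPM and 0.601 to 1.03 CPM. None of the 8 passed, and edgeR called none of 14684 genes (0.0%), of which 654 had an unadjusted p under 0.05 (DESeq2 called 33).

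Summed over all kept cells, Vegfa was 576 and 465 CPM in injected and 243 and 354 CPM in uninjected libraries, with both injected libraries above (log2 change 0.68 ± 0.25, SE; edgeR, adjusted p = 0.868). Aplnr was 4.53 and 0.428 CPM in injected and 0.307 and 0.317 CPM in uninjected libraries, with injected 1 apart (log2 change 2.84 ± 1.11, SE; edgeR, adjusted p = 0.868), and the change was 0.34 without it. Endothelial-like cells were 1.39% and 0.572% of the kept injected cells and 0.440% and 0.458% of the kept uninjected ones. In such sums, more cells of a class and more RNA per cell cannot be told apart. Both injected libraries were above for 5 of the 9 genes (Vegfa, Fgf2, Aplnr, Tek and Adm), against 23.6% of all genes. Over all kept cells, edgeR called none of 16222 genes (0.0%), with 733 at an unadjusted p under 0.05 and 124 called by DESeq2.

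Across the 32 pairs of a tested class and a library, the genes most like each member in log level were listed by Pearson's r. These pairs share libraries and depth, and the values are descriptions. Apln was most like Esm1 (r = 0.947), Aplnr most like Sox17 (0.953), Angpt2 most like Rasgrp3 (0.932) and Flt1 most like Plvap (0.913), which was among the markers of the endothelial-like class. Kdr was most like Cpne8 (0.877), Tek most like Sorbs2 (0.913), Adm most like Itga5 (0.913), Fgf2 most like Kif26b (0.906) and Vegfa most like Sirpa (0.863). Among the 9 genes the highest r was 0.882, between Aplnr and Angpt2, and the lowest was −0.616, between Vegfa and Angpt2.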

How the data were processed

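UMI counts per gene and barcode were measured in 4 libraries of dissociated rat skin, 2 injected and 2 uninjected, grouped by the labels. The authors deposited whole-number counts for every barcode, made with Cell Ranger 7.2.0 per the file headers, while version 5.0.1 is named in the submitters' processing notes. Genome build, annotation and use of strand are not given in those sources. Each library held 1808658 to 1943529 barcodes.

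Cells were called per library (top barcodes by UMIs, and smaller ones that differed from empty droplets at a false discovery rate of 0.01) and kept with 250 or more genes and at most 20% mitochondrial UMIs. Scrublet in scanpy 1.11.5 (Python 3.11.15) ranked doublets, and the share expected at 0.8% per 1000 cells was removed, 932 and 333 injected and 778 and 713 uninjected cells. Kept cells had medians of 3370 and 7813 UMIs in injected and 1997 and 5024 UMIs in uninjected libraries. A cell joined the class with the highest marker score where at least 2 of its markers were seen and the score led the next by 1.25-fold (2-fold in the stricter gate). Of 126 markers of 16 classes, 120 were in the files. Leiden clusters (igraph 0.11.9, resolution 1), made without any listed gene, were the alternative. Each of 8 classes with 20 or more cells in every library was tested on summed counts with edgeR 4.0.16 (R 4.3.3, limma 3.58.1; TMM, filterByExpr, quasi-likelihood test, no covariates), adjusted over all genes by Benjamini-Hochberg, threshold 0.05. The analysis was tested on simulated data. Standard errors came from the F statistic. An exact permutation test of 2 libraries against 2 cannot give p below 0.333, so none is given. Alternatives were DESeq2 1.42.0, no filter, each library left out, the replicate number as a block, clusters, a stricter gate and doublets kept. Class differences were one edgeR fit over both classes with library as a block, added after the data were seen. The bound on free RNA came from the gene of the empty droplets that was rarest in the class relative to them. Classes were rebuilt from markers, so a difference from the study may come from them.

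The 9 members and the 10 other lists (86 of 89 genes in the files) were chosen with earlier results of these data known. The text names the 9 members, any list gene past the threshold, and the gene most like each member among 9051 with 20 CPM or more in a class. Otherwise it names genes among the 2 of a list with the largest change at a mean of 50 CPM or more. It names none of the angiogenesis inhibitors, other VEGF receptors and co-receptors, or other angiopoietin and TIE genes.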

Additional observations from a re-analysis of the deposited data

Results flagged for a closer look

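Flt1 separated the libraries in opposite directions in 2 cell classes. In dendritic-like cells both injected libraries were above both uninjected ones, with a log2 change of 0.48 (0.12 to 0.76 over the libraries left out), and in endothelial-like cells both injected libraries were below both uninjected ones, with a log2 change of −0.54 (−0.86 to −0.15 over the libraries left out, the nearest to 0 without uninjected 1). The difference was tested in an added edgeR fit over both classes: endothelial-like minus dendritic-like was −0.96 ± 0.32 (SE), with an unadjusted p of 0.0164 and an adjusted p of 0.698, and edgeR called 0.0% of 8437 genes. It lay between −1.30 and −0.64 when each library was left out. The same difference for Kdr, the other VEGF receptor, was 0.47 ± 0.36 (SE; edgeR, adjusted p = 0.899). Within cluster 22, the dendritic-like cluster with the higher Flt1, injected and uninjected libraries overlapped for Flt1. That cluster held 56.0% and 47.5% of the injected and 60.0% and 42.9% of the uninjected dendritic-like cells.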

How the results depend on the processing

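No gene of the 9 was called in any of the 8 classes by edgeR. DESeq2 called 1 (Adm in fibroblast-like cells, where it called 182 of 12275 genes with an adjusted p). Testing without a filter on low counts called 4 (Adm, Apln and Angpt2 in endothelial-like and Adm in fibroblast-like cells). Without that filter, 226 of 15017 genes were called in endothelial-like and 436 of 18623 in fibroblast-like cells. Leaving out 1 library in turn, where a lone library is assumed to vary like the others, called between 0 and 4. Of 39 log2 changes, DESeq2 kept the direction of all, no filter of all, doublets kept of 38, the replicate block of 36 and leaving out injected 2 of 37. Leaving out injected 1 turned 10, uninjected 2 turned 7 and uninjected 1 turned 1; clusters turned 6 of 27 and the stricter gate 4 of 28. The cause of these changes was not tested. Direction turned under clusters for Kdr in endothelial-like (0.33), fibroblast-like (−0.12) and macrophage-like cells (2.06), Flt1 in macrophage-like cells (−0.45), and Vegfa in neutrophil-like (0.0082) and dendritic-like cells (−0.0077). It turned under the stricter gate for Kdr in endothelial-like (0.24), macrophage-like (2.46) and mast-like cells (0.14) and Vegfa in dendritic-like cells (−0.085), and with doublets kept for Kdr in fibroblast-like cells (−0.0075). With the replicate block it turned for Vegfa in endothelial-like cells (−0.088), Kdr in neutrophil-like cells (0.38) and Kdr over all kept cells (0.19). Deviations of same-numbered libraries from their group means correlated at 0.139 in endothelial-like cells and from −0.160 to −0.0425 elsewhere. With 2 libraries per group, these values cannot tell whether the numbers pair the libraries. The block changed the genes called from 1 to 0 in macrophage-like cells, and from 6 to 5 in fibroblast-like cells. Ranges over the libraries left out that cross 0 were, in endothelial-like cells, Vegfa −1.62 to 0.93, Kdr −0.50 to 0.091 and Apln −0.70 to 2.63; in fibroblast-like cells, Apln −0.33 to 1.27; in macrophage-like cells, Flt1 −0.13 to 1.45 and Adm −0.20 to 0.71; in neutrophil-like cells, Vegfa −0.54 to 0.051 and Kdr −1.34 to 2.72; in dendritic-like cells, Vegfa −0.14 to 0.25 and Adm −0.96 to 2.04; in T and NK-like cells, Vegfa −0.24 to 0.33; in mast-like cells, Vegfa −1.05 to 1.28 and Kdr −1.62 to 0.48; and over all kept cells, Kdr −1.04 to 1.43, Flt1 −0.15 to 1.45, Apln −0.043 to 3.03 and Angpt2 −0.65 to 2.57. Genes called by edgeR, by DESeq2, without a filter, and over the libraries left out were 1, 15, 226 and 0 to 445 in endothelial-like cells; 6, 182, 436 and 0 to 674 in fibroblast-like cells; 0, 33, 0 and 0 to 549 in keratinocyte-like cells; 1, 5, 104 and 0 to 188 in macrophage-like cells, with 3 under the stricter gate; 0, 54, 367 and 0 to 1294 in neutrophil-like cells; 0, 10, 193 and 0 to 814 in dendritic-like cells; 0, 7, 194 and 0 to 456 in T and NK-like cells; 0, 0, 14 and 0 to 379 in mast-like cells; and 0, 124, 0 and 0 to 140 over all kept cells. Class differences over the libraries left out ran from 1.06 to 2.53 for Adm (endothelial-like minus keratinocyte-like), from 0.99 to 3.25 for Angpt2 in the same classes and from 1.57 to 2.62 for Angpt2 (endothelial-like minus fibroblast-like). The Adm difference of endothelial-like minus dendritic-like cells ran from −0.42, without uninjected 2, to 2.41. Depth limits endothelial-like values, where Fgf2 had 0 to 2 UMIs in a library, and mural-like values, where Kdr, Apln, Aplnr and Tek had 0 UMIs in at least 2 libraries.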
